A study of Mus musculus with 4 samples.

Results

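Pax3 encodes a paired-box transcription factor with known roles in the neural tube, the neural crest and muscle progenitors. Its contacts were read here from a 40 kb stretch around its transcription start, on mouse chromosome 1 from 78170001 to 78210000 in the mm9 build. The stretch spans 4 bins of 10 kb out of the 1000 bins of the captured region (71000001 to 81000000). Every pair of these bins with another bin of the region at least 20 kb away was taken, which gave 3985 pairs of bins out of 500500 in each map. Pax3 lies on the minus strand, so its body runs from this viewpoint toward lower coordinates. That side is called the Epha4 side below, because Epha4, which encodes an ephrin receptor, is the neighbouring protein-coding gene there in the GRCm38 RefSeq table, followed by Slc4a3. Gm2102, Sgpp2 and Farsb follow Pax3 on the other side, called the Sgpp2 side. Mm9 gene positions and a Pax3 promoter sequence were not used here.

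Chromosomes are folded into topologically associating domains, stretches whose loci meet each other more often than loci beyond the domain's boundaries. A deletion that takes away a boundary can let a promoter meet enhancers of a neighbouring domain. Pax3 and Epha4 belong to adjacent domains, and the Epha4 domain holds enhancers known to be active in the limb.

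Capture Hi-C, which counts ligated pairs of crosslinked fragments within a region pulled down by designed probes, was done on distal limb buds of mouse embryos at stage E11.5. There was 1 library each of wild type (WT) and of 3 homozygous mutants, DelB, DelBs and InvF, so the spread among embryos is unknown and no test was made. All intervals are exact 95% intervals that cover counting error only, and reads were not known to be independent molecules. The 3 comparisons with WT share its single library.

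The rearrangements were located on the maps themselves, to the nearest bin. DelB lacked 76390001 to 78060000 (1670 kb), and DelBs lacked 76390001 to 77860000 (1470 kb). The deletions therefore share their far end and differ by a segment of 200 kb (77860001 to 78060000) next to Pax3, which DelBs keeps and DelB does not. In the published description of these alleles, that segment carries the boundary between the Epha4 and Pax3 domains. InvF kept all sequence but had the interval from 74830001 to 75900000 (1070 kb) turned around. Between the inversion and the deletions lies a flank of 490 kb (75900001 to 76390000), whose sequence all 4 alleles keep. Its near end was 1780 kb from the viewpoint in WT and InvF, 310 kb in DelBs and 110 kb in DelB.

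The maps held between 5155274 counts (WT) and 6073471 counts (InvF). The Pax3 viewpoint took 29285 counts in WT and 36265 in InvF, or 0.568% and 0.597% of each library. It took 48587 counts in DelB and 44568 in DelBs, or 0.876% and 0.764%. Libraries were scaled to WT on pairs of bins that both lie left, or both right, of all rearranged sequence, since a deletion also removes pairs from the total. The factors were 0.703 for DelB, 0.673 for DelBs and 0.806 for InvF. They differ from factors by total count, which were 0.930, 0.884 and 0.849. Under total counts the InvF values near WT given below cross 1, at 1.03 for the flank and 1.00167 for the turned interval.

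In both deletions, the flank was the kept stretch where Pax3 contacts rose most. The viewpoint had 800 counts with the flank in WT, 971 in InvF, 3885 in DelBs and 11838 in DelB. After scaling these were 4.08 counts per pair of bins in WT, 3.99 in InvF, 13.3 in DelBs and 42.4 in DelB. DelB was therefore 10.4 times WT (9.68 to 11.2) and DelBs was 3.27 times WT (3.03 to 3.53). InvF, which leaves the flank in place, was 0.978 times WT (0.890 to 1.08), an interval that includes 1. The flank took 2.73% of all viewpoint counts in WT and 24.4% in DelB, against 8.72% in DelBs and 2.68% in InvF. In the deletions that total holds almost no counts from the deleted sequence. Each of the 4 viewpoint bins showed the order WT, DelBs, DelB on its own. The ratio to WT per bin ran from 9.21 to 12.3 in DelB and from 2.95 to 3.69 in DelBs.

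**Figure D1:**
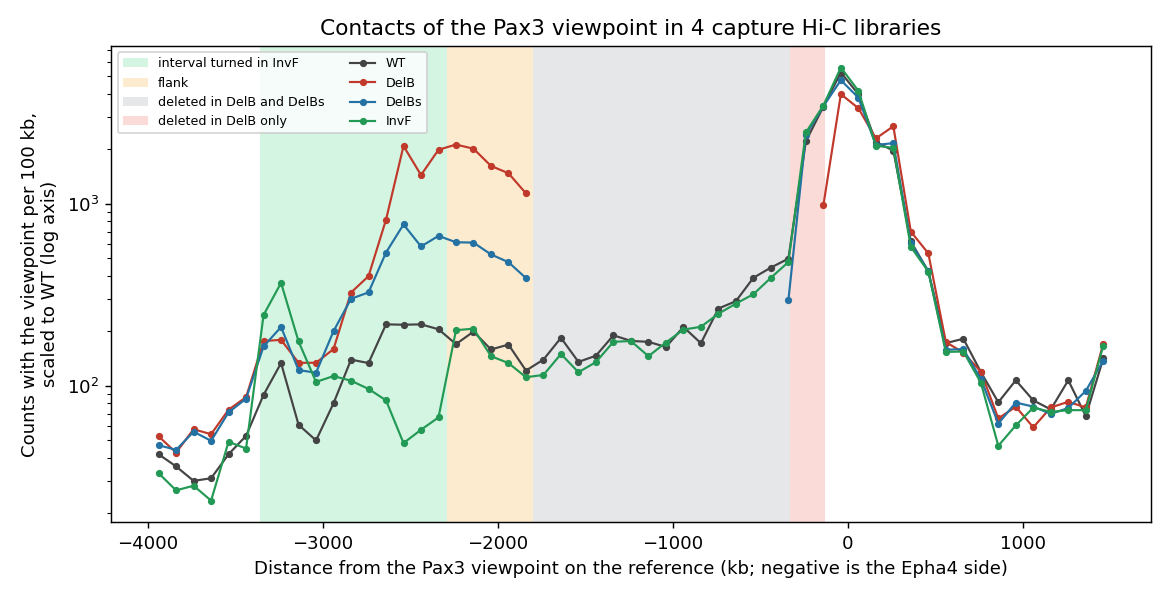
Counts of the Pax3 viewpoint per 100 kb window, scaled to WT, against distance from the viewpoint on the reference (kb, log count axis), with 1 line per library, the rearranged stretches shaded and windows that lie within a deletion left out; windows cut by a deletion end hold fewer bins. DelB and DelBs rise over the flank and the near part of the turned interval, and InvF departs most from WT inside the turned interval. On the Sgpp2 side the lines lie closer together than over the flank.

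Both deletions bring the flank nearer to Pax3, and DelB brings it nearer than DelBs. Each count was therefore set against that library's own mean at the distance on the allele, taken from the same-side pairs used for scaling (observed over expected). For the flank this was 1.93 in WT, 1.92 in InvF, 1.83 in DelB and 0.935 in DelBs. With the coverage of each bin also fitted, the levels were 1.38, 1.38, 1.40 and 0.716. Summed over the flank, then, the level against the expected count was about the same in DelB as in WT, and lower in DelBs. These levels are read at unlike distances, from 1780 kb on in WT, 310 kb in DelBs and 110 kb in DelB. Nearer to Pax3, WT itself was at 1.70 over the 200 kb segment, from 110 kb on. Over the deleted interval that both deletions share, from 310 kb on, WT was at 0.730 (0.706 to 0.755). The flank values therefore do not compare DelB or DelBs with WT at the same distance. Within the flank DelB and WT differed. DelB was lower in the window at 76200001, at 1.32 (1.27 to 1.38) against 1.78 (1.52 to 2.08). It was higher in the window at 75900001, at 3.87 (3.73 to 4.01) against 2.53 (2.16 to 2.94). DelB over DelBs was 3.18 (3.07 to 3.30) as a scaled count, 1.95 (1.88 to 2.03) after accounting for distance and 1.96 with coverage. Which property of the 200 kb segment accompanies this difference was not tested. The 2 alleles also differ in the distance over which the expected count is read.

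Within the flank and beyond it, DelB contacts did not fall with distance from Pax3. In windows of 100 kb, scaled counts were 1466 at 76200001, 1608 at 76100001, 2000.45 at 76000001, 2108 at 75900001, 1974 at 75800001, 1433 at 75700001 and 2071 at 75600001. They dropped to 815 in the next window (75500001) and to 399 in the one after it. The level thus stayed between 1433 and 2108 per window over 7 windows and then fell. DelBs was at a lower level and went from 476 at 76200001 up to 768 at 75600001. It then fell to 538 at 75500001, a smaller fall than in DelB. WT held 168 counts at 76200001, 216 at 75600001 and 217 at 75500001, with no such fall between the last 2.

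Against the expected count at the distance on the allele, DelB rose from 1.32 (1.27 to 1.38) in the window 270 kb away to 5.95 (5.74 to 6.17) in the window 870 kb away. With coverage fitted the latter was 4.62. It was 2.48 (2.34 to 2.62) at 970 kb and 1.41 at 1070 kb. The largest DelBs value was 2.73 (2.58 to 2.90), at 1070 kb, for the same window of the genome (75600001 to 75700000). That window was also high in WT, at 4.66 (4.06 to 5.32) and 2540 kb away. The window with the largest WT value was 74900001 to 75000000, at 5.56 on 133 counts. With coverage fitted that window was at 3.73, below the 4.06 of 75500001 to 75600000. Absolute levels carry the capture efficiency of the bins, and ratios between libraries at the same bins do not.

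**Figure D2:**
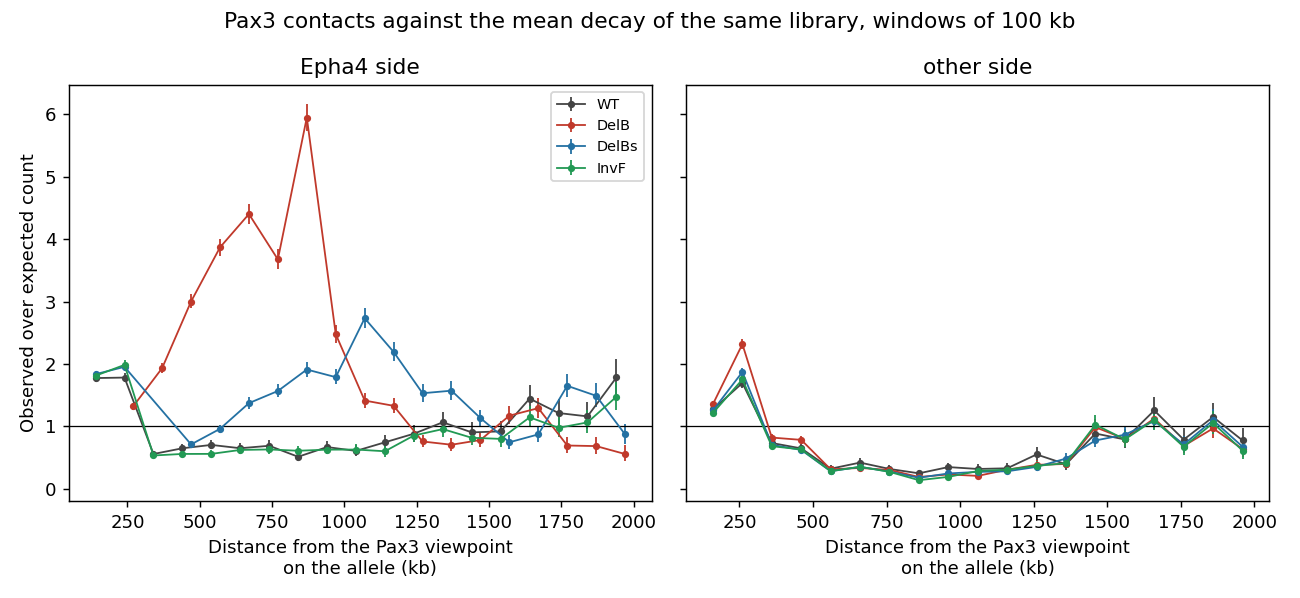
Observed over expected count of the Pax3 viewpoint in windows of 100 kb against distance on the allele (kb), on the Epha4 side (left) and on the other side, the Sgpp2 side (right), with 1 line per library and 95% counting intervals as bars. On the Epha4 side DelB climbs to 5.95 at 870 kb and DelBs to 2.73 at 1070 kb, while WT and InvF are below 1 from 340 kb to 1040 kb.

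In single bins, the fall in DelB had a peak beside it. The 10 kb bin with most DelB counts beyond 200 kb on the Epha4 side was 75640001 to 75650000, with 500 counts against 19 in WT, a ratio of 18.5 (11.7 to 31.0). The next bin toward Pax3 had 477 counts against 25 in WT. Counts in DelB went down on both sides of this pair, to 352 toward Pax3 and to 305 on the other side. In the 50 kb from that bin toward Pax3, DelB had 1838 counts, against 1057 in the 50 kb on its other side, a ratio of 1.74 (1.61 to 1.88). In DelBs the counts were 657 and 489, a ratio of 1.34 (1.19 to 1.51). In WT they were 122 and 99, a ratio of 1.23 (0.938 to 1.62), which includes 1. Over 100 kb on each side the ratio was 1.58 (1.49 to 1.68) in DelB, 1.10 (1.01 to 1.21) in DelBs and 1.09 (0.891 to 1.33) in WT, so DelBs was not set apart from WT at either width. The bin was singled out as the highest in DelB and is counted on the Pax3 side of each ratio. That choice favours a DelB ratio above 1, and its interval does not allow for it. The excess of the bin over its neighbours in DelB and the DelB ratios are therefore a description.

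**Figure D3:**
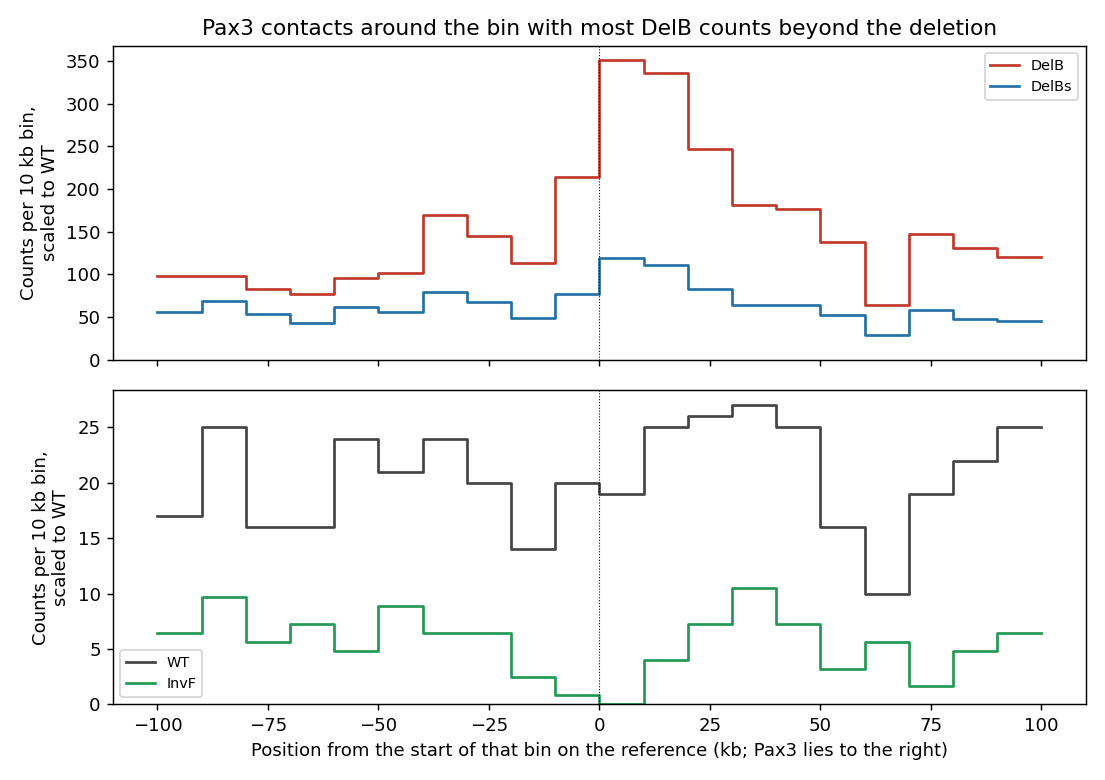
Scaled counts of the Pax3 viewpoint per 10 kb bin over 200 kb around the bin with most DelB counts beyond the deletion, against position from the start of that bin (kb), for DelB and DelBs (top) and for WT and InvF (bottom, on a smaller axis). DelB and DelBs are highest in the same bin and lower on the side away from Pax3, and no such peak is seen in WT at its low count.

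The turned interval of InvF lies beyond the flank and is not rearranged in the deletions. Pax3 had 1516 counts with it in WT, 11030 in DelB and 5866 in DelBs, which were 5.11 (4.84 to 5.40) and 2.60 (2.46 to 2.76) times WT. Farther out, left of the inversion, the ratios were 1.16 (1.08 to 1.25) in DelB and 1.10 (1.03 to 1.19) in DelBs. InvF was below WT there, at 0.865 (0.800 to 0.936). The excess over WT thus narrowed with distance in both deletions. As a scaled count, DelB over DelBs fell from 3.18 in the flank to 1.96 in the turned interval. Beyond it the ratio was 1.05 (0.986 to 1.12). After accounting for distance the 3 values were 1.95, 1.57 and 0.862 (0.796 to 0.933), so DelB was below DelBs left of the inversion. There only 50.4% of bins in DelB and 45.2% in DelBs had an expected count.

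InvF had 1789 counts with the turned interval, 0.951 times WT (0.888 to 1.02), and so kept its sum while exchanging its ends. The 250 kb that the inversion carried toward Pax3 (74830001 to 75080000) had 905 counts against 249 in WT, 2.93 times WT (2.54 to 3.38). The 250 kb carried away (75650001 to 75900000) had 194 counts against 540 in WT, 0.290 times WT (0.244 to 0.342). When the 2 ends were compared at the same place on the chromosome, the sequence now nearer Pax3 was at 1.35 times (1.21 to 1.51) what the WT sequence had there. The sequence now farther away was at 0.628 times (0.518 to 0.761) its WT counterpart there. The exchange was thus larger than a plain swap of the WT counts, although this sets different sequences, each with its own capture efficiency, side by side. Observed over expected was 5.84 in InvF and 4.06 in WT for the end brought nearer, and 3.20 and 4.04 for the end carried away.

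Windows of 100 kb with at least 50 counts in 1 of the 2 libraries were counted where the ratio to WT passed 2 fold. Of 61 such windows of DelB, 13 were higher and 0 lower, against 11.0% higher and 0.0396% lower of all 10092 blocks of the same shape on the map. All 13 lay between 75000001 and 76400000. Of 64 windows of DelBs, 13 were higher and 0 lower, against 8.63% and 0.0571% of 10516 blocks, and they lay between 75100001 and 76400000. Of 65 windows of InvF, 4 were higher and 4 lower, against 5.30% and 6.52% of 12130 blocks, which is near the background. All 8 touched the turned interval. DelB was highest at 75900001, at 12.5 times WT (10.7 to 14.7), next to the inner end of the turned interval. DelBs was at 3.63 times WT (3.07 to 4.30) there and at 3.63 times (2.95 to 4.51) at 76300001, its highest pair of windows. InvF was highest at 75000001, at 2.87 times, and lowest at 75600001, at 0.224 times (0.165 to 0.299).

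**Figure D4:**
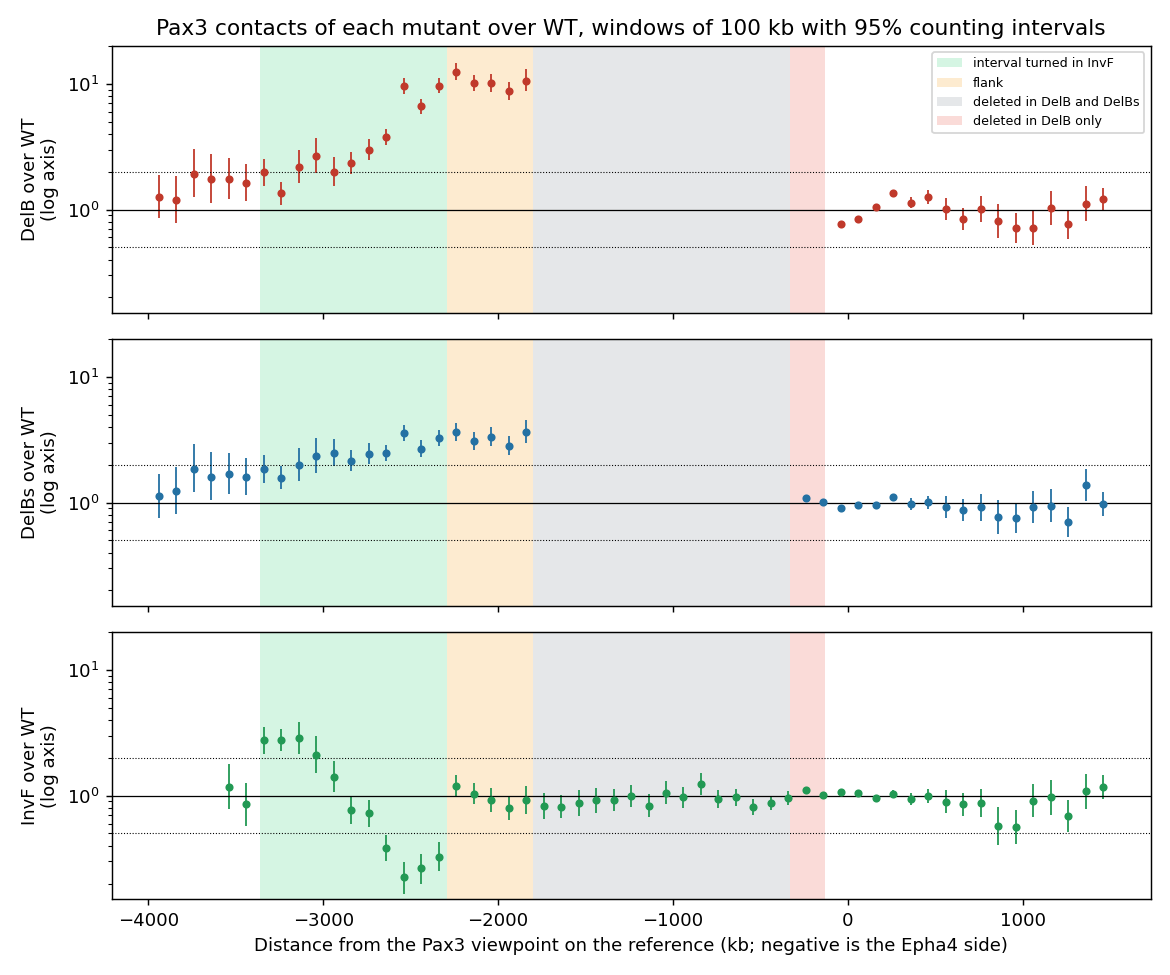
Ratio of each mutant's scaled Pax3 counts to WT in windows of 100 kb (log axis, 95% counting intervals, dotted lines at 2 fold), against distance from the viewpoint on the reference (kb). DelB reaches 12.5 and DelBs 3.63 beyond the deletions, and InvF passes 2 fold up at the outer end and down at the inner end of the turned interval.

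Next to Pax3 itself, DelB had fewer contacts than WT under the same-side scaling, whose pairs include those given here. The stretch between the DelB deletion and the viewpoint (78060001 to 78170000), toward which the Pax3 body runs, had 6160 counts in WT and 8030 in InvF. It had 8476 in DelBs and 6589 in DelB. The ratios to WT were 0.752 (0.726 to 0.778) in DelB, 0.926 (0.896 to 0.957) in DelBs and 1.05 (1.02 to 1.09) in InvF. Scaled by total counts they were 0.995, 1.22 and 1.11, so the lower level in both deletions depends on this scaling, and the DelBs value turns. With balanced maps they were 0.668, 0.916 and 1.06. Scaled only on pairs left of all rearranged sequence, which leaves this stretch out, they were 0.751, 0.907 and 1.04. Whichever scaling is used, DelB was below DelBs there, at 0.812 times (0.786 to 0.839) with the main scaling. Pairs within the viewpoint showed the same order, at 0.704 in DelB and 0.817 in DelBs, or 0.932 and 1.07 by total counts.

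The segment that DelBs keeps had 4471 counts with Pax3 in WT, 7187 in DelBs and 6024 in InvF. The ratios to WT were 1.08 (1.04 to 1.12) and 1.09 (1.04 to 1.13). The shared deleted interval had 3405 counts in WT and 3839 in InvF, 0.909 times WT (0.868 to 0.952).

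On the Sgpp2 side no allele changes a distance. Over the first 500 kb the viewpoint had 8509 counts in WT and 10641 in InvF, against 12904 in DelB and 12728 in DelBs. The ratios were 1.07 (1.04 to 1.10), 1.01 (0.979 to 1.03) and 1.01 (0.980 to 1.04). With balanced maps DelB was at 0.944, so the direction of that small difference is not settled. Within this stretch DelB changed from 0.838 (0.803 to 0.874) in the window at 78200001 to 1.36 (1.29 to 1.44) in the window at 78400001. By total counts the first of these turns to 1.11, and with balanced maps it is 0.756, so its side of 1 depends on the scaling. The second window was above the first under each scaling. In the latter Pax3 had 1953 counts in WT and 3779 in DelB. The 78400001 window was at 1.10 in DelBs and 1.04 in InvF, and at 1.80, 1.44 and 1.09 by total counts. With balanced maps it was 1.15 in DelB. The next 500 kb was lower in all 3 mutants, at 0.868 (0.781 to 0.964), 0.848 and 0.768, where WT had 643 counts. By total counts the deletions were at 1.15 and 1.11 there.

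A measure within each library needs no scaling. Counts from sequence beyond the deletions on the Epha4 side made up 12.1% of viewpoint counts in WT, 11.2% in InvF, 26.4% in DelBs and 51.2% (50.8 to 51.7) in DelB. The deletions also take sequence out of the total. In WT the shared deleted interval held 11.6% of viewpoint counts and the segment 15.3%. Shares and median distances are therefore not taken over the same sequence in each library. The median distance of a viewpoint contact on the allele was 200 kb in WT, 190 kb in InvF, 210 kb in DelBs and 360 kb in DelB. The share of contacts beyond 1 Mb on the allele went the other way, from 21.7% in WT and 19.96% in InvF to 19.0% in DelBs and 13.2% in DelB. Between 100 kb and 1 Mb from the viewpoint, the Epha4 side had 1.23 (1.19 to 1.27) times the counts of the Sgpp2 side in WT. It had 1.31 (1.27 to 1.35) times in InvF, 1.56 (1.52 to 1.60) times in DelBs and 2.16 (2.11 to 2.21) in DelB. In DelB the asymmetry lay in the outer part of that range. From 100 to 500 kb the ratio was 1.04 (1.01 to 1.07) in DelB, below the 1.15 (1.11 to 1.19) of WT. From 500 kb to 1 Mb it was 13.4 (12.5 to 14.3) in DelB, 4.79 (4.47 to 5.14) in DelBs, 2.22 in InvF and 1.90 (1.73 to 2.09) in WT.

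The rise with the flank was not confined to the Pax3 viewpoint when set beside other stretches of 40 kb. Of 28 stretches from 78090001 on, Pax3 ranked 3 by DelB ratio to WT. The 2 stretches between it and the deletion were higher, at 12.5 for 78090001 and 11.0 for 78130001. They lie on the side toward which the Pax3 body runs, and how much of them the gene covers was not determined. They may therefore not be separate from Pax3. On the Sgpp2 side the ratio went down to 5.88 at 120 kb from Pax3 and was 8.61 at 280 kb. The latter was the highest on that side and below the 10.4 of the Pax3 viewpoint. At 1000 kb it was 1.89. After accounting for distance, Pax3 ranked 5 in DelB, and the highest stretch was 78410001, at 2.54. In DelBs Pax3 ranked 8 by ratio to WT, at 3.27, where the highest was 4.62 at 78450001. It ranked 6 there after accounting for distance. With coverage also fitted, Pax3 ranked 5 in DelB and 11 in DelBs.

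**Figure D5:**
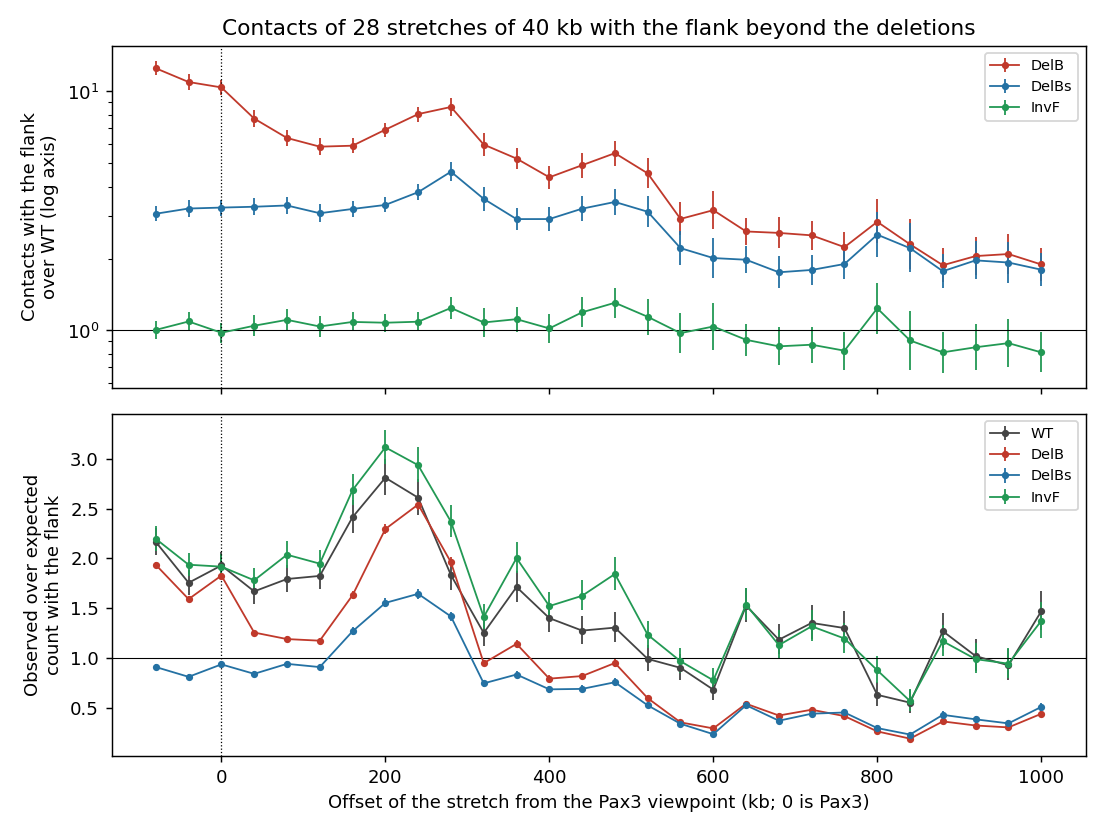
Contacts of 28 stretches of 40 kb with the flank beyond the deletions, as ratio to WT (top, log axis) and as observed over expected count (bottom), against offset from the Pax3 viewpoint (kb), with 95% counting intervals. Pax3, at offset 0, ranks 3 by DelB ratio, and the stretch at 240 kb is highest in DelB after accounting for distance.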

How the data were processed

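Per the labels, distal limb bud cells were fixed and capture Hi-C was made with custom SureSelect probes, with 1 library for each of 4 genotypes. The authors deposited raw counts for each pair of 10 kb bins of each library, and a second map of signal values balanced by the KR method, per the file names. The submitters' processing notes name Bowtie2 2.2.6 and mm9. The sources used here do not give how duplicates were handled. The main values use the raw counts, and the balanced signal is an alternative. The deposited difference maps were not used. No column lacked a sample (0). Contact maps hold no expression, so the labelled tissue could not be checked against marker genes.

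Viewpoint pairs at least 20 kb apart were summed by region and by 100 kb window in Python 3.11.15 with numpy 2.4.6 and scipy 1.17.1, and drawn with matplotlib 3.10.9. The deletions were located as runs of bins under 10% of WT, and the inversion from the corner of new contacts in InvF. Scaling used same-side pairs outside 74830001 to 78060000, 20 kb to 2 Mb apart. The expected count was the library's mean over such pairs at each distance with at least 20 pairs, up to 3.63 Mb. Ratios have exact conditional binomial intervals, observed over expected values exact Poisson intervals and shares exact Clopper-Pearson intervals. Window ratios use a pseudocount of 1 to choose windows. The windows named are the 5 highest and 5 lowest ratios of each mutant and the 5 highest observed over expected values, from which the text gives the extremes. The scripts were tested on simulated data. Alternatives covered the map, the scaling, the viewpoint, the flank, the windows and the expected count. The gene, regions and windows were chosen with earlier results of these data known. Coordinates are mm9 as in the files, and gene order is from the GRCm38 RefSeq table.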

Additional observations from a re-analysis of the deposited data

Results flagged for a closer look

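A homozygous deletion leaves no deleted sequence to be counted, yet a small signal appeared there in both deletion libraries. Pax3 had 293 counts with the sequence that DelB lacks, against 7583 in WT, which after scaling is 2.71% of WT (2.41 to 3.05). It had 72 counts with the sequence that DelBs lacks, against 3342 in WT, which is 1.45% (1.13 to 1.83). The last bin of each deletion was left out of these sums. Taking such a share off the counts with the flank left the ratio to WT within its counting interval in both deletions, the 2 values for which this was done. The source of these counts was not tested.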

How the results depend on the processing

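All directions for the flank in DelB and DelBs held in every alternative run. Over the alternatives, the flank in DelB lay between 9.21 and 13.8 times WT, in DelBs between 2.95 and 4.29, and observed over expected of DelB over DelBs between 1.57 and 2.00. The cause of the changes given here was not tested. No paired analysis was possible because each genotype has 1 library and the labels give no replicate numbers.

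With balanced maps, the flank's observed over expected value was 1.22 in WT, and DelB over DelBs was 1.79. Balancing raised the values of deleted sequence. The shared deleted interval was at 0.192 times WT in DelB and 0.162 in DelBs, against 0.0264 and 0.0150 in scaled raw counts. Balanced values of the deletions carry this limit. The 500 kb on the Sgpp2 side reversed to 0.944 in DelB, the segment in DelBs was at 1.02, and the ratio of the sides (100 kb to 1 Mb) was 1.09 in WT and 1.14 in InvF, 1.90 in DelB and 1.31 in DelBs. Scaled by total counts, the flank was at 13.8 in DelB and 4.29 in DelBs, the Sgpp2 side at 1.41, 1.32 and 1.06 in DelB, DelBs and InvF, the segment at 1.42 in DelBs and 1.14 in InvF, and 20 DelBs windows were higher. Scaled only on pairs right of all rearranged sequence, with the viewpoint left out, DelBs was at 1.04 on the Sgpp2 side.

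With the 4 viewpoint bins taken alone, in order of coordinate, the flank moved to 12.3 (bin 1), 9.49 (bin 2) and 9.21 (bin 4) in DelB, 3.69 (bin 1) and 2.95 (bin 2) in DelBs, and 0.853 (bin 2) and 1.08 (bin 3) in InvF. Its observed over expected value in WT moved to 2.32 (bin 2) and 1.61 (bin 4), and DelB over DelBs to 1.85 (bin 4). The Sgpp2 side moved to 1.02, 1.01 and 1.18 (bins 1, 2 and 4) in DelB, 1.04 and 0.973 (bins 1 and 3) in DelBs, and 1.04 and 0.974 (bins 2 and 4) in InvF. The segment reversed to 0.997 in DelBs (bin 4) and moved to 1.13 and 1.01 in InvF (bins 1 and 4). The ratio of the sides was 2.45, 2.37, 2.03 and 1.80 in DelB (bins 1 to 4), 1.67, 1.51 and 1.44 in DelBs (bins 2 to 4), and 1.38, 1.27 and 1.24 in InvF (bins 1, 3 and 4). With bin 4 alone, 2 InvF windows were lower. With a viewpoint of 6 bins the ratio of the sides was 2.04, 1.48 and 1.26 in DelB, DelBs and InvF. With pairs at least 50 kb apart the Sgpp2 side was at 1.12 in DelB.

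With only the 250 kb of flank next to the deletion, DelB was at 9.28, InvF at 0.848, DelB over DelBs at 1.75 and WT observed over expected at 1.60. With 100 kb, DelBs was at 3.74, DelB over DelBs at 1.57 and WT at 1.12. WT was at 1.55 with the expected count from pairs right of all rearranged sequence, without the viewpoint, and 1.38 with coverage fitted. Coverage over same-side pairs could not be fitted for bins inside the rearranged stretch, so it was fitted on all WT pairs, a choice made after seeing the data, as was taking off residual counts.

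Windows of 50 kb gave 27 higher in DelB, 29 in DelBs and 7 in InvF, with 8 lower in InvF. Windows of 200 kb gave 7, 7 and 2 higher and 1 lower. A limit of 1.5 fold gave 20 higher in DelBs and 9 lower in InvF, and 3 fold gave 6 and, for InvF higher, 0. The ratio of the sides at 100 to 500 kb was 1.15, 1.04, 1.19 and 1.21 in WT, DelB, DelBs and InvF, and at 200 kb to 1 Mb it was 1.08, 2.78 and 1.14 in WT, DelB and InvF.

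The main limits are that 1 library per genotype gives no spread between embryos, that the maps pool all cells of the tissue, and that WT counts beyond the deletions are low, with 800 over the flank.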

Other observations

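Besides the changed windows, the bins with most Pax3 counts from 200 kb on were the same in the libraries that keep them. Beyond 200 kb on the Epha4 side, the bin with most Pax3 counts in WT was 77970001 to 77980000, inside the segment, with 463 counts. The same bin was highest in DelBs, with 647 counts, and in InvF, with 704. DelB lacks it. On the Sgpp2 side the highest bin beyond 200 kb was 78410001 to 78420000 in each library, with 393 counts in WT, 477 in InvF, 618 in DelBs and 741 in DelB. These 2 bins lie 200 and 210 kb from the viewpoint, at the near limit of the search. Counts tend to be higher there, so their like distances follow in part from that limit. On the Sgpp2 side the next bin toward Pax3, 78400001 to 78410000, had 219 counts in WT.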
